A study of Mus musculus with 6 samples.

Results

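The imprinted genes described here are a list of 38 mouse genes, found on the array by gene symbol, with Peg3 as the marker gene. A probe carrying the symbol was found for 34 of them, of 19057 genes with a probe on the array, and these 34 genes have 81 probes. The 38 genes comprise 24 listed as expressed from the paternal copy, 12 listed as expressed from the maternal copy, and 2, Grb10 and Gnas, whose expressed copy differs with tissue or transcript. Some listed genes are imprinted only in certain tissues, as Ube3a is mainly in neurons, and imprinting in these lines was not measured. H19, Snrpn, Zrsr1 and Airn, for which no probe carries the symbol in the annotation used, were not analysed here.

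The genes were compared between ID8-M and its parent ID8, a mouse ovarian epithelial cancer line. ID8-M was derived from ascites of female C57BL/6 mice that had received parental ID8 intraperitoneally at 8 weeks of age. The ascites was collected 12 weeks later, and clones were picked from it and passaged. Parental ID8 had no such passage through mice, and both lines were grown in DMEM with 4% serum. RNA of 3 samples of each line was hybridised to 6 arrays of 1 Illumina bead chip. ID8-M is represented by 1 line, and neither the number of mice nor the number of clones behind it is given in the sources used here. The labels do not say that the 3 samples of a line came from separate cultures, so p-values measure only the spread between these samples, which may be technical. On the chip, ID8-M occupied positions D to F and parental ID8 positions A to C, so that position and line cannot be told apart. In a bulk sample, fewer cells that contain an RNA and less of that RNA per cell cannot be told apart.

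Genomic imprinting leaves a gene active mainly on the chromosome copy inherited from the mother or on that from the father. DNA methylation laid down in the egg or the sperm marks imprinting control regions, and a control region usually governs a cluster of several genes. Many imprinted genes act on fetal and placental growth, metabolism and brain function, and many are silenced after birth outside a few tissues. Loss of the methylation marks or of the active copy is well known in tumours, and reduced PEG3 is known from human ovarian cancer. The arrays measure the RNA of both copies together, so the parental origin given for each gene is background knowledge and was not measured.

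Between 16386 and 17186 probes had a detection p under 0.05 on an array, and such probes are called detected here. Correlations over the tested probes were 0.9933 to 0.9946 within a line and 0.9673 to 0.9704 between the lines. Levels are normalized log2 intensities, differences are ID8-M minus parental with a standard error, and the lowest signal of any detected probe lay between 5.35 and 5.46 on this scale. All 5 epithelial markers with a probe were detected in both lines, 4 of them higher in ID8-M, with summed intensities of 30536 to 32416 in ID8-M and 19236 to 20819 in parental ID8. Of 7 leukocyte and macrophage markers, Cd14 was detected in both lines and fell by 0.35 ± 0.09 in ID8-M (limma, adjusted p = 0.0243), while Ptprc, Itgam, Csf1r, Adgre1, Tyrobp and Fcer1g were detected on no array, with summed intensities of the 7 of 498 to 537 in ID8-M and 600 to 672 in parental ID8. Of 4 endothelial markers, Pecam1 was detected on the 3 ID8-M arrays and 0 of 3 parental arrays, a bound of at least 1.47-fold higher for ID8-M (limma, adjusted p = 9.65e-05), and Cdh5 was detected on no array. The summed intensities of the 4 were 162.9 to 178.5 in ID8-M and 132.4 to 138.8 in parental ID8. The part of these markers in the results was not tested.

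Most of the imprinted genes gave no detected signal in either line. Of the 34 genes with a probe, 22 were detected on no array, 3 were detected on a few arrays without filling either line, and 9 were detected on all 3 arrays of at least 1 line. These 9 genes were Peg3, Kcnq1ot1, Ndn, Slc38a4 and Impact among the paternally expressed, Tssc4 and Ube3a among the maternally expressed, and Gnas and Grb10. They make up 26.5% of the imprinted genes with a probe, while the same criterion took in 46.9% of all genes with a probe. By probe the shares were 18.5% of 81 and 39.8% of all probes with 1 gene symbol. All 3 arrays detected 8 of the genes in ID8-M and 8 in parental ID8, and 7 were detected on all 6 arrays. Ndn filled only parental ID8, and Grb10 filled only ID8-M.

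The paternally expressed genes had 5 of 21 members in the tested set and 13 detected on no array, and the maternally expressed genes had 2 of 11 in the tested set and 9 on no array. Expressed as shares, 23.8% of the paternally and 18.2% of the maternally expressed genes with a probe could be tested. The difference between these shares was not tested, and 1 more or 1 fewer maternally expressed gene would move its share by more than the gap between them.

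**Figure D1:**
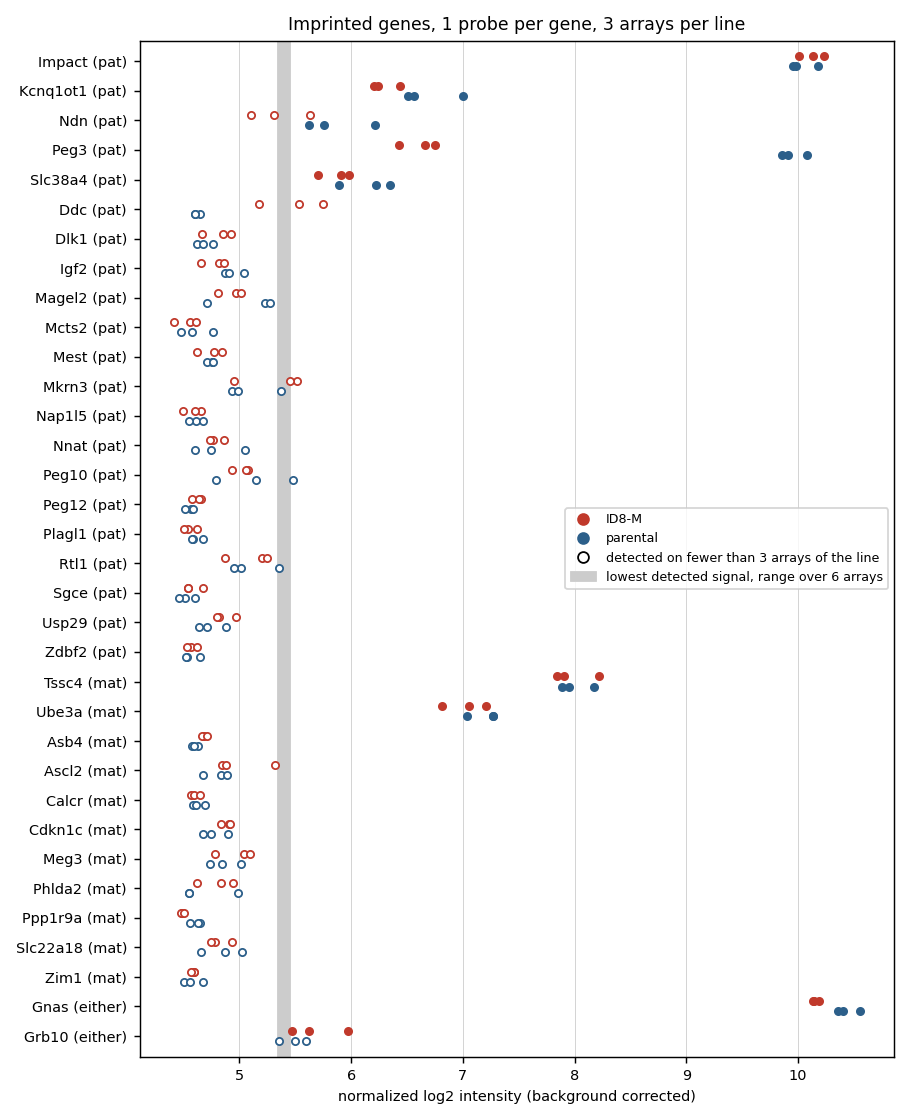
Normalized log2 intensity (x axis) of each imprinted gene with a probe, ID8-M arrays in red above parental arrays in blue, 3 points per line, grouped as expressed from the paternal copy (pat), the maternal copy (mat) or either. Each gene is shown by its brightest tested probe, or by its brightest probe where none was tested; most genes lie at or left of the grey band of lowest detected signals, and Peg3 is the gene whose lines stand farthest apart.

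In ID8-M 2 of the 9 tested imprinted genes were lower than in parental ID8 and 0 were higher, while 7 were not called. At an unadjusted limma p under 0.05 the counts would be 4 lower and 0 higher. Over all tested genes they would be 1983 lower and 1841 higher. The 2 called genes were Peg3, lower by 10.1-fold, and Gnas, lower by 1.22-fold at its brightest probe. Called means an adjusted p under 0.05 in a limma fit over all tested probes, and by that rule 30.8% of the 8933 tested genes were called, 15.4% higher and 15.3% lower. A count of 2 in 9 lies near this background and says nothing particular about imprinted genes as a group. By probe, 5 of 15 tested probes of imprinted genes were called, all lower, against 28.4% of all tested probes called and 14.8% called lower. All 5 are probes of Peg3 or Gnas, so they repeat readings of the same 2 genes. The median difference of the 9 genes was -0.28, and that of all tested genes was -0.026. Of the 9 genes, 7 had a difference below 0, as had 53.4% of all tested genes.

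Among the 5 tested paternally expressed genes 1 was lower, 0 were higher and 4 were not called, with a median difference of -0.39. Of the 2 tested maternally expressed genes 0 were called by limma, 0 also at an unadjusted p under 0.05, and their median was -0.092. With 5 and 2 genes, no comparison between the classes beyond these values was made. The 2 genes listed as maternally expressed are Tssc4 and Ube3a, and Ube3a is known as imprinted mainly in neurons. Whether either was expressed from 1 copy in these lines was not measured.

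**Figure D2:**
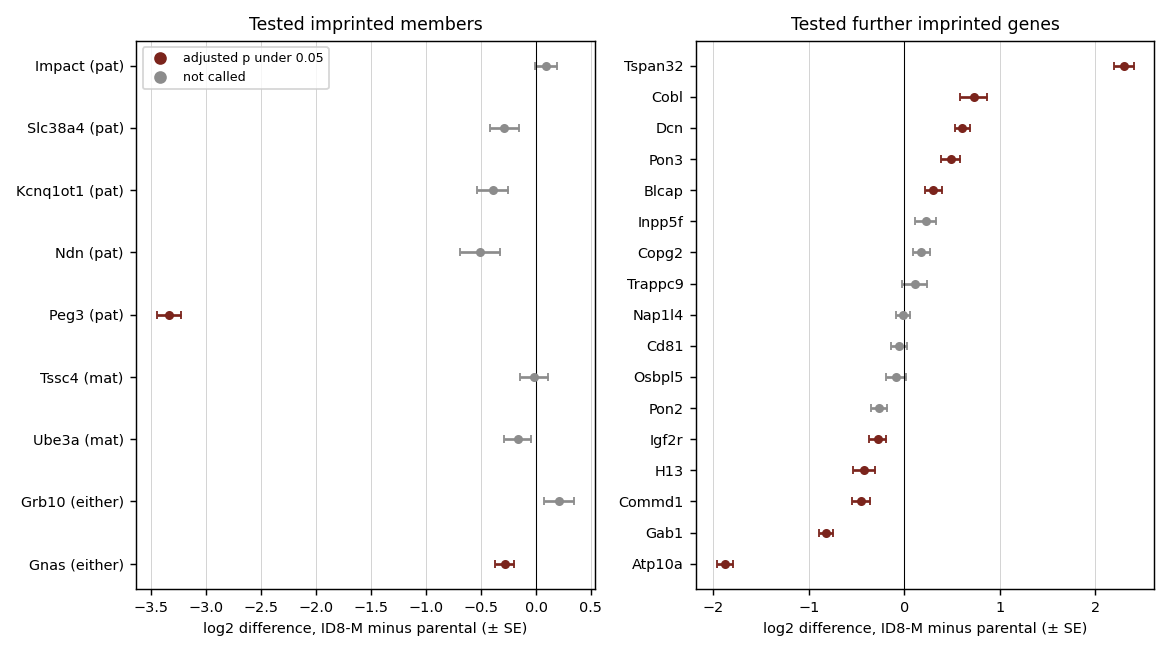
Difference in log2 intensity, ID8-M minus parental, with its standard error (x axis), for the tested imprinted genes (left) and for tested genes of a further list of imprinted genes (right), 1 probe per gene. Dark red points are called by limma at an adjusted p under 0.05 and grey points are not; Peg3 at -3.34 lies far from the other 8 imprinted genes, which lie between -0.51 and 0.21, and the point of Atp10a stands for a bound, since ID8-M did not detect it.

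Peg3 encodes a large Kruppel-type zinc finger protein that binds DNA, and it is expressed from the paternal copy at the proximal end of mouse chromosome 7. Its start lies close to that of Usp29, which is read in the opposite direction, and the short stretch between the annotated ends of these genes is shown because Peg3 had the widest difference among the tested imprinted genes. RefSeq places it in GRCm38.p6 at chr7:6730463-6730558, printed on the minus strand, the strand of Peg3, so that it reads toward Peg3. Capitals mark matches of the motif CCAAT, which was searched on both strands and matched here as ATTGG.
Peg3 to Usp29: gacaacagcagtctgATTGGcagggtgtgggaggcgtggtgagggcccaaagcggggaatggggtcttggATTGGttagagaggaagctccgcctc
The 96 bases hold 2 matches of CCAAT, a motif present in 18.0% of windows of this length taken from 32851 RefSeq promoters. They hold 3 CpG dinucleotides and 60.4% G and C. No match was found of GGGCGG, which 19.6% of such windows hold. There was also none of TATAAA, held by 4.02%, and none of ATGGCG, held by 2.46%. A match is a description of the letters only.

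The array has 4 Peg3 probes, of which 2 gave a detected signal. At the brightest, Peg3 stood at 6.75, 6.66 and 6.43 in the ID8-M samples, against 10.08, 9.91 and 9.86 in the parental samples. Before any correction the same probe read 232, 217 and 197 intensity units in ID8-M, against 1243, 1143 and 1010 units in parental ID8. All 3 ID8-M samples lay far below all 3 parental samples, and all 6 arrays detected the probe. The level fell by 3.34 ± 0.11 on the log2 scale, which is 10.1-fold (limma, adjusted p = 3.56e-07). Only 2 of the 8933 tested genes had a lower difference.

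The second Peg3 probe was detected on the 3 parental arrays and on 0 of the 3 ID8-M arrays. It read 4.52, 4.59 and 4.59 in ID8-M, against 6.59, 6.65 and 6.62 in parental ID8, without overlap. Since ID8-M lay below the detection limit, the probe gives only a bound, which is at least 2.36-fold lower in ID8-M (limma, adjusted p = 7.11e-07). For such bounds, each array of the undetected line was given its lowest detected signal, or the probe's own signal where that was higher, before the line means were compared. The other 2 probes were detected on no array of either line and carry no information on the difference.

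**Figure D3:**
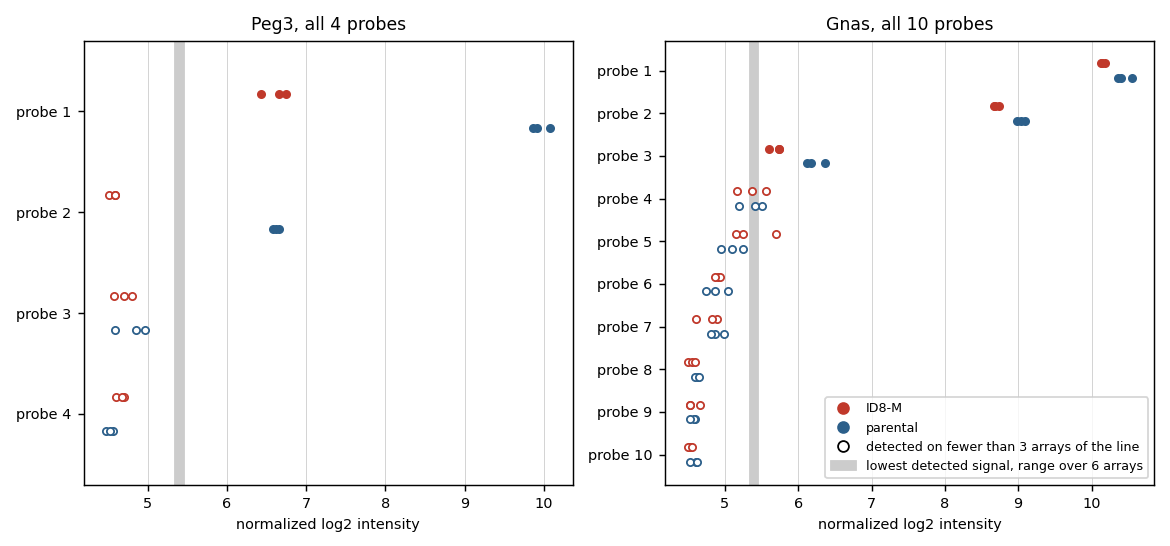
Normalized log2 intensity (x axis) of every probe of Peg3 (left, 4 probes) and Gnas (right, 10 probes), ID8-M arrays in red above parental arrays in blue, 3 points per line. The 2 Peg3 probes and 3 Gnas probes with filled points are lower in ID8-M without overlap. Open points mark lines in which fewer than 3 arrays detected the probe. The ID8-M points of the second Peg3 probe lie left of the grey band of lowest detected signals, so that this probe gives only a bound.

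The Peg3 call did not rest on a single array or setting. It was made in all 14 alternative settings, with differences between -3.41 and -2.35, the smallest one without background correction. Leaving out each array in turn gave -3.41 to -3.26.

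The other listed genes of the Peg3 cluster with a probe gave no detected signal. Usp29, which encodes a ubiquitin-specific protease and is paternally expressed, has 3 probes, with levels of 4.56 to 4.97 in ID8-M and 4.53 to 4.88 in parental ID8. Zim1, a maternally expressed zinc finger gene beside Peg3, has 1 probe, with levels of 4.56 to 4.59 in ID8-M and 4.51 to 4.67 in parental ID8. No array detected either gene, so that a difference of Usp29 or Zim1 below the detection limit could not be seen here.

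None of the tested genes within 1 Mb of Peg3 fell as far as Peg3. The nearest of them were Olfr1349 at -0.20 Mb and Zfp954 at 0.40 Mb, by gene midpoints. Between these 2 only Peg3 was tested, so differences of genes closer to Peg3 were not tested. A cause shared by the region was not tested. RefSeq annotates 72 other genes within 1 Mb of Peg3, of which 32 have a probe, 7 were tested and 2 were called, in opposite directions. Over all tested genes 30.8% were called, so this count lies near the background. Vmn1r65, a vomeronasal receptor gene, was detected on 0 of 3 parental arrays and gave a bound of at least 1.53-fold higher for ID8-M (limma, adjusted p = 0.00267). Zfp28, a zinc finger gene, fell by 0.41 ± 0.09 (limma, adjusted p = 0.00961). Zfp787, Zfp667, Olfr1349, Zfp954 and Clcn4 were not called, with differences of -0.21 to 0.09. The median over 937 tested probes of chromosome 7 was -0.014, and with it removed the Peg3 call stood.

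**Figure D4:**
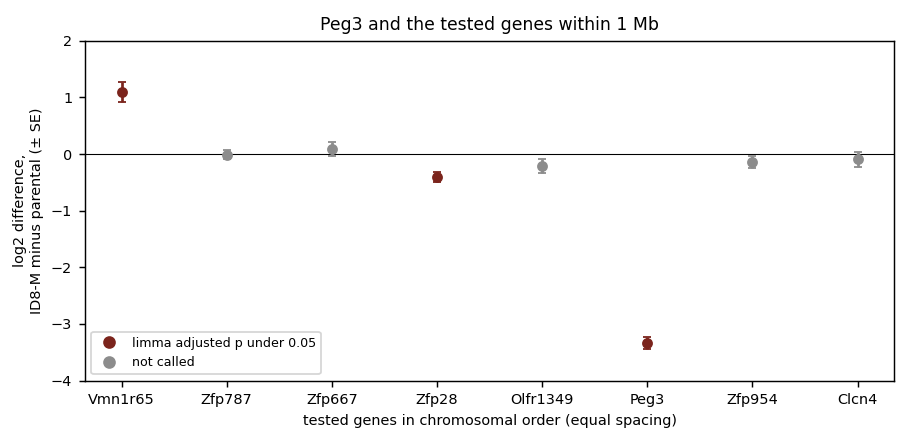
Difference in log2 intensity, ID8-M minus parental, with its standard error (y axis), for Peg3 and the 7 tested genes within 1 Mb of it, in chromosomal order at equal spacing (x axis). Peg3 lies at -3.34, and the 6 neighbours measured in both lines lie between -0.41 and 0.09; the point of Vmn1r65, undetected in parental ID8, stands for a bound of at least 1.53-fold and not for a measured size.

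Gnas encodes the stimulatory G protein alpha subunit, which couples hormone receptors to adenylyl cyclase. Its locus on chromosome 2 uses several start sites, some of them active on the maternal and some on the paternal copy, and the alpha subunit transcript itself is imprinted only in certain tissues. The bases before the most downstream start in the RefSeq table are shown because Gnas is the other imprinted gene that was called, and because they show how CpG-rich this locus is beside the Peg3 stretch. They lie at chr2:174329756-174330005 of GRCm38.p6 on the plus strand. Capitals mark matches of GGGCGG on either strand, found here as its reverse complement.
Gnas: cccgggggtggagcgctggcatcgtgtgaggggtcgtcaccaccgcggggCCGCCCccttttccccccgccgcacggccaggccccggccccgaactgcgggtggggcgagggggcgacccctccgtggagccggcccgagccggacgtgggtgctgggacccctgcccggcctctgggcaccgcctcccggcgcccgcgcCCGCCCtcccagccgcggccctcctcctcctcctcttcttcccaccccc
The 250 bases hold 29 CpG dinucleotides and 80% G and C. They hold 2 matches of GGGCGG, a motif present in 32.7% of windows of this length. No match was found of CCAAT, held by 33.8% of them, of TATAAA, held by 12.4%, or of ATGGCG, held by 5.73%. Over RefSeq promoter windows of 300 bases, the median ratio of observed to expected CpG was 0.603 for the 32 listed imprinted genes with a window and 0.390 for 27025 genes in all. The 8 tested imprinted genes with a window had a median of 0.666, and the 21 genes with a window that have a probe but were not tested had 0.652.

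All 3 Gnas probes that could be tested were lower in ID8-M, by 1.2- to 1.4-fold. At the brightest, Gnas stood at 10.14, 10.18 and 10.14 in ID8-M, against 10.40, 10.36 and 10.55 in parental ID8. This probe fell by 0.28 ± 0.08 (limma, adjusted p = 0.0377). At the next probe it stood at 8.74, 8.68 and 8.67 in ID8-M, against 8.98, 9.10 and 9.04 in parental ID8, which is a fall by 0.34 ± 0.08 (limma, adjusted p = 0.0132). The dimmest of the 3 probes read 5.73, 5.73 and 5.60 in ID8-M, against 6.37, 6.12 and 6.17 in parental ID8, a fall by 0.53 ± 0.10 (limma, adjusted p = 0.00450).

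At none of these 3 probes did the lines overlap. The call at the brightest probe is close to the threshold. It was lost on leaving out ID8-M sample 1, 2 or 3 or parental sample 1 or 3, with a highest limma adjusted p of 0.107, and it held without parental sample 2 at 0.0481. It was also lost with cyclic loess normalization (limma, adjusted p = 0.0577), with no filter on dim probes (0.0552) and with the median of chromosome 2 removed (0.0562). The second probe kept its call without any 1 array, with a highest limma adjusted p of 0.0494, and so did the third, with 0.0192. The annotation used does not say which of the Gnas transcripts each probe reads. Of the remaining 7 Gnas probes, 2 were detected on 1 to 3 arrays and 5 on none.

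Kcnq1ot1 is a long noncoding RNA transcribed from the paternal copy, antisense to Kcnq1, and it silences neighbouring genes on that copy. At its brightest probe it stood at 6.44, 6.24 and 6.20 in ID8-M, against 7.00, 6.56 and 6.51 in parental ID8. The lines did not overlap, but the difference of -0.39 ± 0.14 was not called (limma, adjusted p = 0.0716). Leaving out each array in turn gave -0.49 to -0.24, never called. The other Kcnq1ot1 probe was detected on no array.

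Genes that Kcnq1ot1 is known to silence were at background. Cdkn1c, an inhibitor of cyclin-dependent kinases, Phlda2, which restrains placental growth, Slc22a18, a membrane transporter gene, and Ascl2, a transcription factor gene needed in the placenta, were detected on no array. Their levels ran between 4.46 for Slc22a18 and 5.32 for Ascl2 in ID8-M, and between 4.45 for Ascl2 and 5.03 for Slc22a18 in parental ID8, none of which is above the detection limit.

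Tssc4, whose protein takes part in assembling the spliceosome, lies in the same cluster and was well detected. It stood at 7.91, 7.84 and 8.21 in ID8-M, against 8.17, 7.89 and 7.95 in parental ID8. The lines overlapped, and the difference was -0.02 ± 0.12 (limma, adjusted p = 0.930). The sign of this difference turned with cyclic loess normalization, to 0.04, and on leaving out ID8-M sample 1 or 2 or parental sample 1, to at most 0.07. A second Tssc4 probe differed by -0.05 (limma, adjusted p = 0.791).

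Igf2, the fetal growth factor at the far side of this region, has 1 probe, with levels of 4.65 to 4.87 in ID8-M and 4.87 to 5.04 in parental ID8, detected on no array. From H19 to Osbpl5 the array has probes for 20 genes. Of these, 8 were tested and 2 called, where 30.8% of all tested genes were called. One is Tspan32, described below, and the other is Cars, a transfer RNA synthetase gene, which fell by 0.29 ± 0.09 (limma, adjusted p = 0.0418). The Cars call was lost on leaving out any array other than parental sample 3, with a highest limma adjusted p of 0.130. Cd81, Nap1l4, Tnfrsf22 and Osbpl5, which lie among the undetected members, differed by -0.09 to 0.05 and were not called. Kcnq1 was detected on 1 ID8-M array and 2 parental arrays and was not tested.

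**Figure D5:**
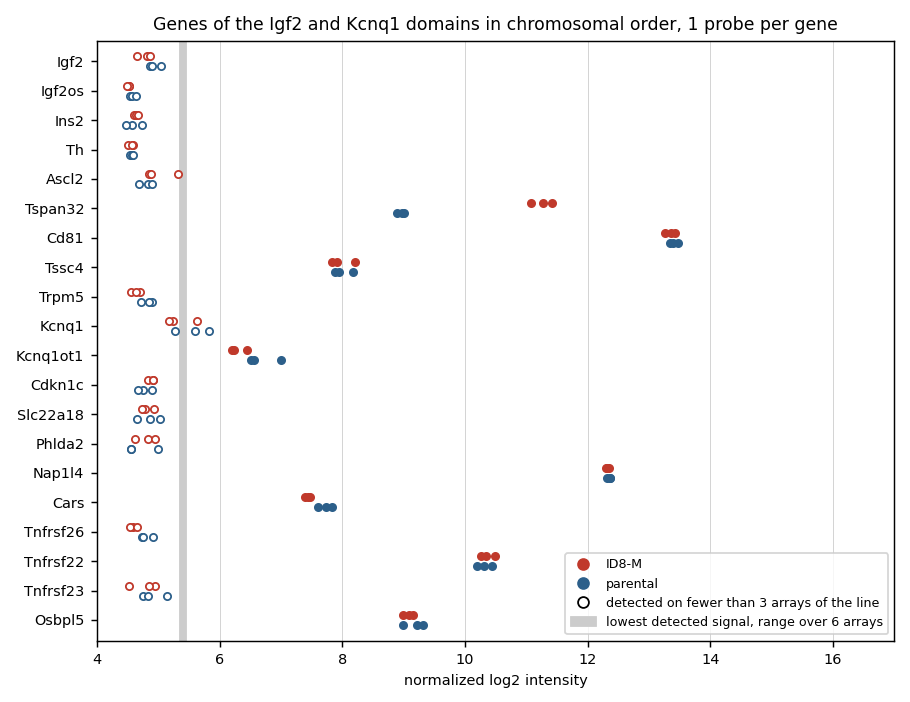
Normalized log2 intensity (x axis) of the 20 genes with a probe from Igf2 to Osbpl5 in distal chromosome 7, in chromosomal order from top to bottom, ID8-M arrays in red above parental arrays in blue, 3 points per line. Tspan32 stands to the right in ID8-M, Kcnq1ot1 and Cars lie slightly to the left, and open points mark genes detected on fewer than 3 arrays of a line.

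In the Prader-Willi and Angelman region of chromosome 7, the paternally expressed genes were near or below the detection limit. Ndn encodes necdin, a protein of the MAGE family known from neurons as a brake on growth. It read 5.11, 5.31 and 5.63 in ID8-M, where 1 of 3 arrays detected it, against 6.21, 5.75 and 5.62 in parental ID8, where all 3 did. The highest ID8-M sample lay above the lowest parental sample, and the difference of -0.51 ± 0.18 was not called (limma, adjusted p = 0.0677). Without ID8-M sample 3 the difference was -0.66 and was called (limma, adjusted p = 0.0419).

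Magel2, another MAGE family gene, and Peg12 were detected on no array. Mkrn3, which encodes a RING finger protein, was detected on 2 of 3 ID8-M arrays and 0 of 3 parental arrays. It read 5.51, 5.45 and 4.95 in ID8-M, against 5.37, 4.94 and 4.98 in parental ID8. The lines overlapped at the detection limit, and Mkrn3 did not enter the tested set. Snurf, which shares its transcript with Snrpn and stands outside the 38 genes, was looked up afterwards and had 4 probes, of which 1 was detected on 1 array.

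Ube3a, a ubiquitin ligase gene whose paternal copy is silent mainly in neurons, is the maternally expressed gene of the region. It stood at 6.81, 7.20 and 7.05 in ID8-M, against 7.27, 7.27 and 7.04 in parental ID8. The lines overlapped, with a difference of -0.17 ± 0.12 (limma, adjusted p = 0.334). A second Ube3a probe differed by -0.28 ± 0.14 (limma, adjusted p = 0.180), and 5 further probes were not tested.

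Impact, Slc38a4 and Grb10 are imprinted genes outside these large clusters that were detected. Impact encodes a regulator of translation that acts through GCN1. It stood at 10.23, 10.14 and 10.00 in ID8-M, against 10.18, 9.98 and 9.95 in parental ID8. The lines overlapped, and neither its brightest probe, at 0.09 ± 0.10 (limma, adjusted p = 0.553), nor its second, at -0.07 (limma, adjusted p = 0.700), was called.

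Slc38a4, an amino acid transporter gene, stood at 5.91, 5.98 and 5.70 in ID8-M, against 5.89, 6.22 and 6.35 in parental ID8. The lines overlapped, and the difference of -0.29 ± 0.13 was not called (limma, adjusted p = 0.144). The median over all tested probes of its chromosome, 15, was 0.33, and with that median removed Slc38a4 lay at -0.62 and was called (limma, adjusted p = 0.0119). It was also called without parental sample 1, at -0.42 (limma, adjusted p = 0.0424).

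Grb10 encodes an adaptor that damps signalling from the insulin receptor, and it is expressed from the maternal copy in most tissues and from the paternal copy in neurons. It stood at 5.62, 5.47 and 5.97 in ID8-M, against 5.60, 5.50 and 5.35 in parental ID8, where 2 of 3 arrays detected it. The lines overlapped, with a difference of 0.21 ± 0.14 (limma, adjusted p = 0.294). The 2 other Grb10 probes were detected on no array.

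Ddc, the gene for aromatic amino acid decarboxylase beside Grb10, was detected only in ID8-M, and there not on every array. It read 5.75, 5.53 and 5.18 in ID8-M, where 2 of 3 arrays detected it, against 4.65, 4.60 and 4.60 in parental ID8, where none did. All ID8-M samples lay above all parental samples, but Ddc did not enter the tested set, since no line detected it on all 3 arrays. With parental ID8 below the detection limit the probe gives only a bound, at least 1.05-fold higher in ID8-M, and in the limma fit with no filter on dim probes it had an adjusted p of 0.00934. Its 2 other probes were detected on no array.

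The other clusters gave almost no detected signal in either line. In the Dlk1 and Meg3 cluster, Dlk1, which encodes a membrane protein related to Notch ligands, Rtl1, a gene derived from a retrotransposon, and the noncoding RNA Meg3 have 7 probes with levels of 4.46 to 5.24 in ID8-M and 4.48 to 5.36 in parental ID8. Rtl1 came nearest to detection, with a lowest detection p of 0.0598.

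In the Peg10 and Sgce cluster, Peg10, also derived from a retrotransposon, was detected on 1 parental array and 0 ID8-M arrays. Its brightest probe read 5.07, 5.06 and 4.93 in ID8-M against 5.15, 4.79 and 5.48 in parental ID8, and its other probe was detected on no array. Sgce, the gene for epsilon-sarcoglycan, and the maternally expressed Asb4, Calcr and Ppp1r9a were detected on no array.

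Mest, Plagl1, Nnat and Zdbf2 likewise gave no detected signal. Their levels ran from 4.43 for Plagl1 to 4.91 for Nnat in ID8-M, and from 4.43 for Mest to 5.05 for Nnat in parental ID8. Plagl1 encodes a zinc finger transcription factor, Nnat the small membrane protein neuronatin, and Mest a protein of the hydrolase fold. Over all 22 genes without a detected probe, the 43 probes ranged between 4.41 and 5.32 in ID8-M and between 4.43 and 5.36 in parental ID8. At these levels a difference between the lines was not detectable, and the result does not show that the RNAs are absent.

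A group of imprinted genes arose as retrocopies of other genes and sits inside the intron of a host gene. Mcts2 lies in H13 and is a copy of Mcts1. Nap1l5 lies in Herc3, and Nap1l1 was listed as its parent, which was not checked here. No array detected Mcts2, with 4.41 to 4.61 in ID8-M and 4.47 to 4.76 in parental ID8, or Nap1l5, with 4.49 to 4.65 in ID8-M and 4.55 to 4.68 in parental ID8.

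The genes listed as their parents and most of their hosts were expressed. Mcts1, on the X chromosome, stood at 9.64, 9.80 and 9.95 in ID8-M, against 10.23, 10.47 and 10.36 in parental ID8, and fell by 0.56 ± 0.11 without overlap (limma, adjusted p = 0.00633). The median over the X chromosome's tested probes was -0.26, and with it removed the Mcts1 difference was -0.29 and not called (limma, adjusted p = 0.0895). Nap1l1 differed by -0.20 ± 0.10 at its brightest probe (limma, adjusted p = 0.171), while the dimmest of its 3 probes, detected on 0 of 3 parental arrays, gave a bound of at least 1.14-fold higher for ID8-M (limma, adjusted p = 0.0253).

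The host H13, a signal peptide peptidase gene with several transcripts, fell by 0.43 ± 0.12 at its brightest probe (limma, adjusted p = 0.0277). Of its 5 tested probes 3 were called, all lower. At the brightest probe the call was lost on leaving out any array other than parental sample 2, with a highest limma adjusted p of 0.0867. Herc3 was detected on 1 parental array and was not tested. Blcap, the host of Nnat, was higher in ID8-M by 0.30 ± 0.09 (limma, adjusted p = 0.0386). That call was lost on leaving out any array other than ID8-M sample 2, with a highest limma adjusted p of 0.114, and with no filter on dim probes. Commd1, the host of Zrsr1, fell by 0.46 ± 0.10 (limma, adjusted p = 0.00918).

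A further list of 40 imprinted genes, 35 with a probe, was set beside the 38. Of its 17 tested genes 5 were higher and 5 lower in ID8-M, with a median difference of -0.017. That is 10 called of 17, where 30.8% of all tested genes were called, and the directions were even. This list and the 38 genes were both drawn up with earlier results of these data known, so the difference between their counts was not tested.

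Tspan32, a tetraspanin gene of the Kcnq1 region best known from blood cells, had the widest rise on this list. It stood at 11.08, 11.27 and 11.41 in ID8-M, against 9.00, 8.89 and 8.98 in parental ID8, higher by 2.30 ± 0.10 without overlap (limma, adjusted p = 1.81e-06). A second probe was higher by 1.87 ± 0.16 (limma, adjusted p = 7.90e-05). Of the 7 leukocyte and macrophage markers with a probe, Cd14 was detected in both lines and the other 6, Ptprc among them, on no array. A part of blood cells in the Tspan32 difference was not tested.

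Atp10a, a phospholipid transporter gene near Ube3a that is reported as imprinted in some tissues, had the widest fall. It read 4.52, 4.54 and 4.60 in ID8-M, where no array detected it, against 6.35, 6.53 and 6.43 in parental ID8. This gives at least 2.08-fold lower in ID8-M (limma, adjusted p = 1.80e-06).

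Gab1, a docking protein gene of receptor tyrosine kinase signalling, fell by 0.82 ± 0.08 (limma, adjusted p = 0.000122). It lies on chromosome 8, whose tested probes had a median of -0.32, and with that median removed Gab1 was still called at -0.50. Dcn, which encodes the matrix proteoglycan decorin, was higher in ID8-M by 0.61 ± 0.08 (limma, adjusted p = 0.000874), and all 4 of its tested probes were higher. Dcn also stands on the list of fibroblast markers, of which Col1a1 was detected and not called and Lum, Pdgfra and Thy1 were detected on no array.

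Cobl, an actin nucleator gene beside Grb10, was higher by 0.73 ± 0.14 (limma, adjusted p = 0.00622). In parental ID8 it read 5.70, 5.45 and 5.18, near the detection limit, and 2 arrays detected it. The other Cobl probes were detected on no array. Pon3, a lactonase gene near Peg10, was higher by 0.48 ± 0.10 (limma, adjusted p = 0.00758). Igf2r, the maternally expressed receptor that takes Igf2 to the lysosome, fell by 0.28 ± 0.09 at its brightest probe (limma, adjusted p = 0.0398), while its second probe, at -0.25, was not called (limma, adjusted p = 0.0541). The Igf2r call was lost on leaving out any array other than parental sample 2, with a highest limma adjusted p of 0.129, and with cyclic loess, no filter or its chromosome median removed. Blcap and Igf2r stand outside the limit of 8 genes per list and were named after their values were seen.

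The factors that set, keep or erase imprints included 1 gene that was called. Of 26 listed, 24 have a probe and 15 were tested, of which 1 was lower in ID8-M and 0 were higher by limma, with a median of -0.096. Of all 8933 tested genes 30.8% were called, 15.3% lower, with a median difference of -0.026. At an unadjusted limma p under 0.05, 4 factors would be lower and 0 higher, against 1983 lower and 1841 higher of all tested genes. Dnmt1, the enzyme that copies DNA methylation at replication, differed by -0.10 ± 0.11 (limma, adjusted p = 0.558), and Uhrf1, its guide to new DNA, by 0.12 ± 0.08 (limma, adjusted p = 0.322). Trim28, the corepressor that protects imprints in the early embryo, differed by -0.17 ± 0.08 (limma, adjusted p = 0.124).

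The called factor was Ctcf, which binds unmethylated imprinting control regions and insulates their targets. It stood at 8.90, 9.03 and 8.96 in ID8-M, against 9.25, 9.36 and 9.24 in parental ID8, and fell by 0.32 ± 0.08 without overlap (limma, adjusted p = 0.0213). Ctcf lies on chromosome 8, and with that chromosome's median removed its difference was 0.0018 (limma, adjusted p = 0.992). The call was also lost without ID8-M sample 1 or 3 or parental sample 1 or 2, with a highest limma adjusted p of 0.0670. Smchd1, which keeps several imprinted clusters silent, was not called at its brightest probe, at -0.31 ± 0.12 (limma, adjusted p = 0.0934), but fell by 0.52 ± 0.10 at a second probe (limma, adjusted p = 0.00503).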

How the data were processed

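Total RNA of 6 samples was turned into biotinylated cRNA and hybridised to 1 chip, per the labels. The deposited scanner table holds, per the file headers, each probe's mean bead intensity on a linear scale, its bead count, the standard error over beads (a score not used in the tests) and a detection p-value; the authors deposited these intensities without normalization. A second deposited table of normalized intensities was used only as an alternative. The scanner software and genome build are not given in the sources used here.

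From the detection p-values the intensities were background corrected, then quantile normalized and log2 transformed with neqc of limma 3.58.1 (R 4.3.3, offset 16). Probes with detection p under 0.05 on all 3 arrays of a line, 16221 of 45281, were tested with lmFit and eBayes, two-sided, without a block, and adjusted by Benjamini-Hochberg over all of them. A gene is represented by its brightest tested probe. Of the probes, 34885 had 1 gene symbol, 18 several and 10378 none, and none was named from several. The median bead count per array was 37 to 39, and 3 arrays per line limit the precision. The fit was checked on simulated data.

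The members and lists were chosen with earlier results of these data known. All members were accounted for. From each list, called genes were named up to 8 by smallest adjusted p, with retrogene parents always. Some genes not called at their brightest probe, such as Dnmt1, Uhrf1, Trim28 and Smchd1, were named outside this rule. Promoter letters come from RefSeq (GRCm38.p6). Alternatives were no background correction, the deposited table, cyclic loess, other filters, a replicate block, chromosome centring, the mean of probes and each array left out. Leaving an array out kept 2 samples in its line and the pooled spread.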

Additional observations from a re-analysis of the deposited data

Results flagged for a closer look

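Ddc had a signal outside the tested set, with a probe detected on 2 of 3 ID8-M arrays and 0 of 3 parental arrays. Its measured values lay 0.87 apart on the log2 scale, ID8-M minus parental, but parental ID8 was below the detection limit, so that the probe gives only a bound of at least 1.05-fold higher in ID8-M.

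Mkrn3 likewise had a probe outside the tested set that was detected on 2 of 3 ID8-M arrays and 0 of 3 parental arrays, with measured values 0.21 apart. Its mean in ID8-M, 5.30, lay below the parental mean of lowest detected signals, 5.41, so that no fold is given.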

How the results depend on the processing

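The count of probes called over the whole array stayed within 1.5 times under all alternatives, and Peg3, Tspan32, Atp10a, Gab1, Dcn, Commd1, Cobl and Pon3 were called in every alternative in which they were tested. Over the 38 genes, the count lower in ID8-M, 2, became 1 with cyclic loess, and 1 higher and 1 lower with no filter on dim probes; leaving out an array gave 1 to 2 lower and 0 to 1 higher. Their median of -0.28, over 9 tested genes, became -0.10 without background correction and -0.10 in the deposited normalized table. With no filter it was -0.0066, but over 34 genes, and there most probes lie at background. For the paternally expressed genes the median of -0.39 became -0.16, -0.16 and -0.013 in the same alternatives. It was -0.50 with chromosome medians removed and -0.49 to -0.21 with an array left out. The value with no filter covers 21 paternally expressed genes, and the main value covers 5. Their calls became 1 higher with no filter, 2 lower with chromosome medians removed, and 1 to 2 lower and 0 to 1 higher with an array left out. Of the further imprinted genes, 3 were lower with no filter, where 35 were tested, and 3 to 5 with an array left out. Of the imprint factors, 4 were lower without background correction, 4 in the deposited table, 3 by the mean of all tested probes, 0 with chromosome medians removed and 0 to 2 with an array left out. Signs turned for Tssc4, to 0.044 with cyclic loess and within -0.13 to 0.066 (0.022, 0.057 and 0.066 without ID8-M sample 1, ID8-M sample 2 and parental sample 1), for Ctcf, to 0.0018 with its chromosome median removed, and for Nap1l1, to 0.038 by the mean of its probes. The cause of these changes was not tested. With the filter tightened to 0.01 and to all 6 arrays, 6 imprinted genes could be tested.

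Deviations of same-numbered arrays correlated at 0.037, -0.093 and 0.0065, which gave no sign of an effect shared by replicate number. The labels do not say whether the samples were paired, and these correlations cannot settle it. With the replicate block, 2 paternally expressed genes were lower, as Kcnq1ot1 passed the limma threshold (adjusted p = 0.0323), while the brightest Gnas probe (adjusted p = 0.0758), Blcap (0.0578), Igf2r (0.0633) and Cars (0.0700) did not.

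Signal over background limits these results, because 61 of the 81 probes of imprinted genes were detected on no array. For the 22 genes with no detected probe a difference below the detection limit could not have been seen, and no measurement here separates the parental copies.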
